A study of Homo sapiens with 60 samples.

Results

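The genes described here are 10 direct transcriptional targets of the tumour suppressor p53, measured in A549, a p53-competent line from a lung adenocarcinoma. They were taken by symbol from a table of expected counts of 60675 gene identifiers, of which 41706 could be given a symbol. All 10 (CDKN1A, MDM2, GDF15, TP53I3, SESN1, BTG2, FDXR, FAS, ZMAT3 and TP53INP1) were found and passed the filter on low counts, among 17764 genes tested. The messenger RNA of 60 libraries had been sequenced 24 h after treatment with herbal extracts at 20, 100 and 500 µg/mL. Ethanol extracts of Glycyrrhizae Radix (licorice root), Panax Ginseng, Poria Cocos and Atractylodis Rhizoma had 3 libraries per dose. Ethanol extracts of Paeoniae Radix (peony root) and Angelicae Gigantis Radix had 1 library per dose. Of the water extracts of multi-herb formulas, Sibjeondaebo-tang had 3 libraries per dose and Palmul-tang 2, and DMSO vehicle was the control (n = 3). The vehicle is 0.1% DMSO in the labels, whereas the design text has 2%. That text also gives lower doses for extracts that are toxic below 500 µg/mL, while the labels give the same 3 doses for every extract, so the doses printed are those of the labels. The p53 protein was not measured.

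p53 is a transcription factor that is kept scarce in unstressed cells because MDM2, itself encoded by a p53 target gene, marks it for degradation. DNA damage and other stresses stabilise it, and it then binds response elements near genes for cell cycle arrest, apoptosis, metabolism and its own feedback. Several of these genes also answer to other factors. GDF15 is a known target of ATF4 and CHOP, the transcription factors of the integrated stress response, and CDKN1A has p53-independent regulators as well.

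Library totals ran from 18602484 to 29764358 counts, and 21744 to 28101 genes had a count above 0. The 28101 belonged to Poria replicate 3 at 20 µg/mL, and the next highest number was 23495. Whether replicate libraries stem from separate cultures is not stated in the labels, and the p-values cover just the variation among these libraries, which may be technical. Of 5 epithelial markers (EPCAM, KRT8, KRT18, KRT19 and CDH1), all were detected, with summed levels of 3913 to 7977 CPM (a gene's count per 1e+06 counts, with libraries scaled by TMM) over the 60 libraries. Some markers of other cell types were near 0 and others were not. PTPRC, CD3E, CDH5 and DES stayed at or below 0.235 CPM in every library and PECAM1 at or below 0.503 CPM, although none was at 0 in all libraries. Others were detected, with a highest level of 75.8 CPM for CD68, 25.8 CPM for ACTA2, 9.85 CPM for COL3A1 and 2.96 CPM for COL1A1.

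The stretches next to the transcription start are shown for 5 members. GDF15 and CDKN1A were taken because they rose most among the members with licorice. FAS, SESN1 and FDXR are the members in whose start region a p53 decamer was found. The sequences are from RefSeq on GRCh38.p14. They were searched on both strands for the p53 decamer, the unit that is repeated in a full response element, for TATAAA and for TGATGNAA, an amino acid response element bound by ATF4. Start windows of 300 bases were matched for 9 of the 10 members, all but TP53INP1. These members had 18 windows, of which 3 held the p53 decamer and 1 held TATAAA.
GDF15: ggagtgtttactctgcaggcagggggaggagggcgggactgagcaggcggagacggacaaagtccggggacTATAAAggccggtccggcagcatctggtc
CDKN1A: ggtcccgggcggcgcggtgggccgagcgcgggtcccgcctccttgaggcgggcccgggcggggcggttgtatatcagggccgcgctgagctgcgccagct
SESN1: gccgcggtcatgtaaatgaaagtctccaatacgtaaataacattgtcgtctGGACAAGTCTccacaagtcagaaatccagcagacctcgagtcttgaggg
FAS: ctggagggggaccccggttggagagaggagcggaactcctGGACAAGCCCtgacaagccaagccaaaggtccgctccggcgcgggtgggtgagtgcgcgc
FDXR: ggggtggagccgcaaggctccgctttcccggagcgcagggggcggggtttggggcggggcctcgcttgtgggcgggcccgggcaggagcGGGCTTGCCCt
Each reads 5′ to 3′ on the strand of its gene, and each lies at a RefSeq start that falls inside the longer GENCODE 29 span of its gene. Capitals mark TATAAA in GDF15 and the p53 decamer in SESN1, FAS and FDXR. The stretches are chr19:18386058-18386157 (plus strand) for GDF15, chr6:36678614-36678713 (plus) for CDKN1A, chr6:109008989-109009088 (minus) for SESN1, chr10:88991269-88991368 (plus) for FAS and chr17:74872995-74873094 (minus) for FDXR. The decamer was found in 6.63% of all 35116 start windows, TATAAA in 11.5% and TGATGNAA in 3.62%. GDF15 was the member with TATAAA, and no member window held TGATGNAA. A match describes the letters of the window and not binding, and these windows are short, so response elements farther away or in introns are outside them.

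The question was whether the members moved with dose within an extract and whether GDF15 and CDKN1A moved with the rest. With licorice they did not all move together: GDF15 and CDKN1A rose most, MDM2, BTG2 and FDXR rose less, TP53I3 and TP53INP1 fell, and SESN1, FAS and ZMAT3 were not called. In the single peony library at 500 µg/mL all 10 were higher than at 20 µg/mL. No member was called with any of the other 5 replicated extracts.

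**Figure D1:**
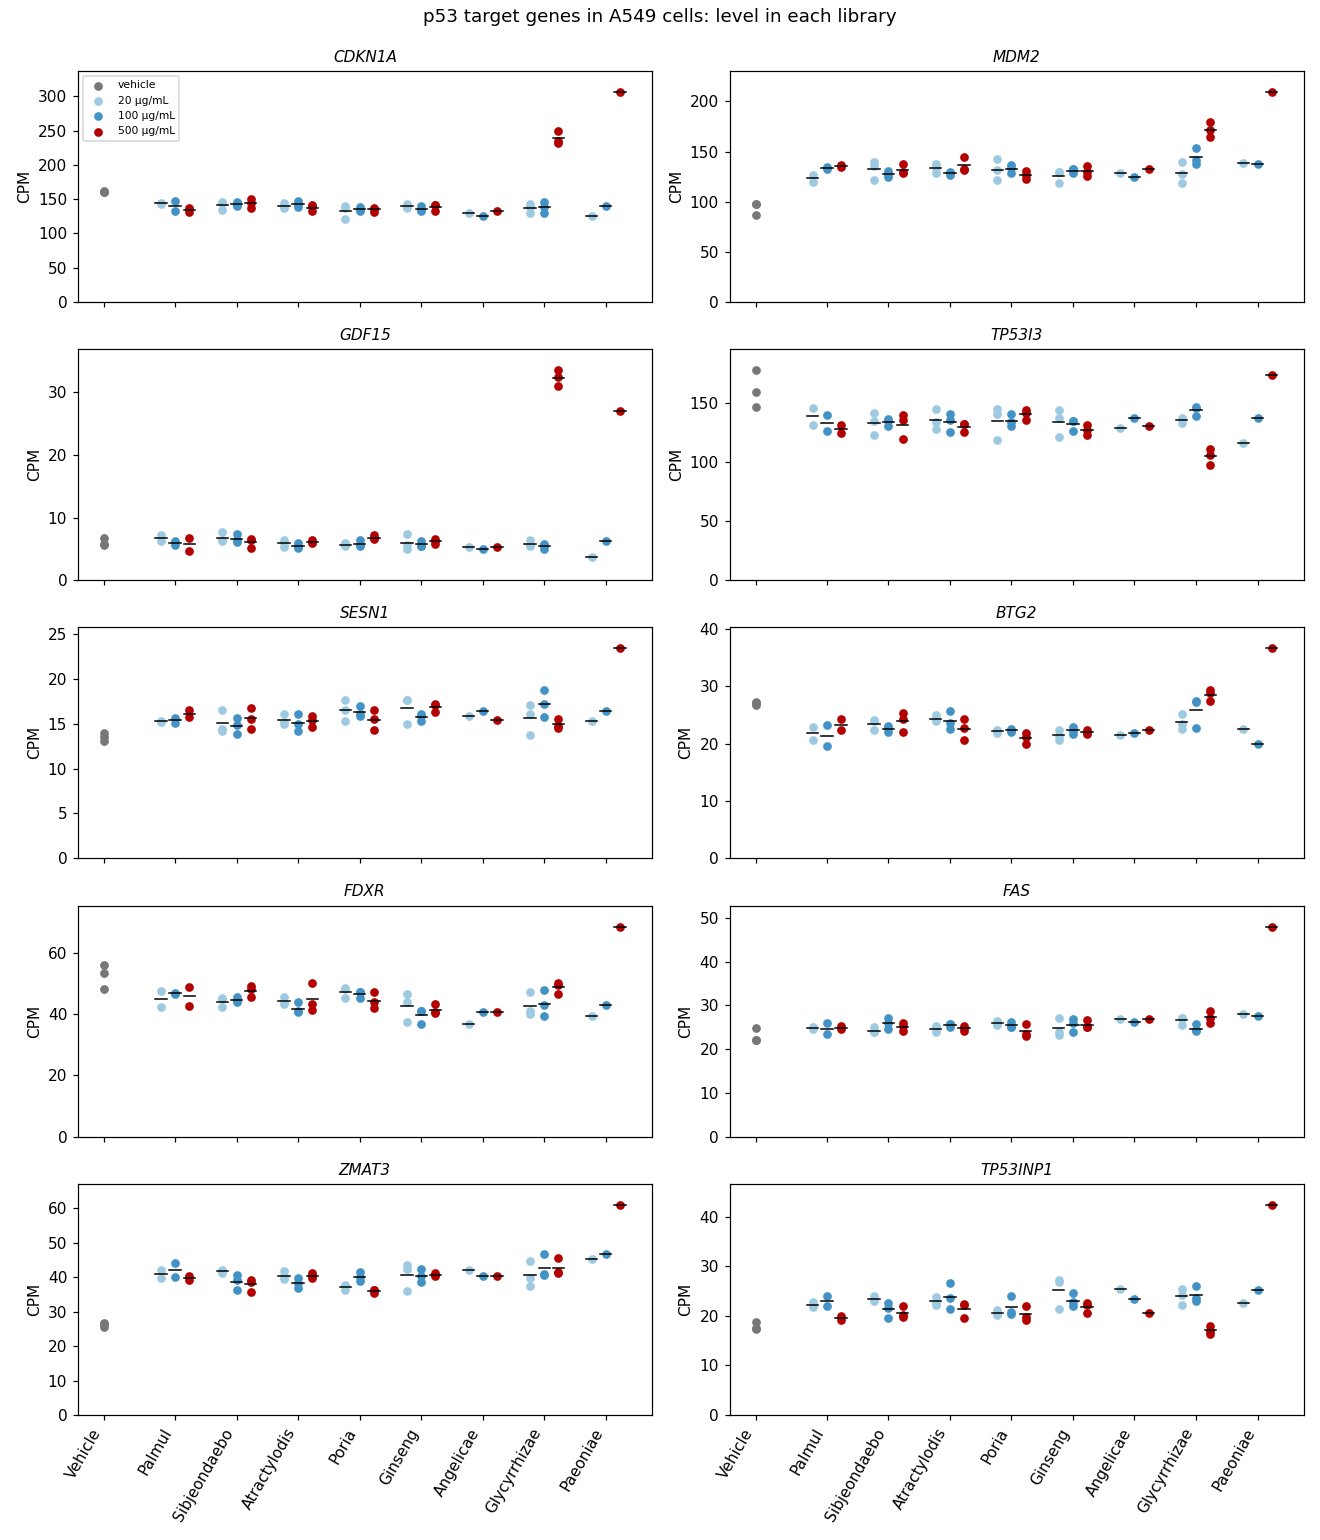
Level of each of the 10 genes in every library (CPM), by extract, with the vehicle and then the doses of 20, 100 and 500 µg/mL from left to right; each point is 1 library and dashes are means per dose. Glycyrrhizae at 500 µg/mL stands above the other doses for GDF15 and CDKN1A and below them for TP53I3 and TP53INP1, and the single Paeoniae library at 500 µg/mL is high in all 10.

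GDF15 (ENSG00000130513; chromosome 19, 18374731 to 18389176, GRCh38) encodes a secreted stress cytokine of the TGF-beta superfamily. In the licorice libraries its level was 33.6, 30.9 and 32.4 CPM at 500 µg/mL, against 5.55, 5.45 and 6.40 CPM at 20 µg/mL. Every library at 500 µg/mL lay far above every library at 20 µg/mL. The log2 change was 2.47 ± 0.10 (SE, n = 3 and 3), or 5.56-fold (edgeR quasi-likelihood test, adjusted p = 1.84e-24).

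CDKN1A (ENSG00000124762; chromosome 6, 36676460 to 36687339) encodes p21, an inhibitor of cyclin-dependent kinases and the main arm of p53-driven cell cycle arrest. Its level with licorice was 249.7, 235 and 233 CPM at 500 µg/mL, against 143, 129.7 and 138 CPM at 20 µg/mL. The groups did not overlap. The log2 change was 0.81 ± 0.05, or 1.75-fold (edgeR adjusted p = 6.07e-19).

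MDM2 (ENSG00000135679; chromosome 12, 68808176 to 68850686) encodes the ubiquitin ligase that restrains p53. It had 172, 179 and 165 CPM at 500 µg/mL of licorice, against 128, 139.7 and 118 CPM at 20 µg/mL. The groups again did not overlap, and the change was smaller, a log2 difference of 0.42 ± 0.06 or 1.34-fold (edgeR adjusted p = 3.13e-08). BTG2 (ENSG00000159388; chromosome 1, 203305491 to 203309602), an antiproliferative protein that recruits the deadenylase complex to messenger RNA, had 28.8, 29.2 and 27.5 CPM at 500 µg/mL, against 25.2, 22.4 and 23.4 CPM at 20 µg/mL. All 3 libraries at 500 µg/mL lay above those at 20 µg/mL, with a log2 change of 0.27 ± 0.06 (edgeR adjusted p = 0.000599).

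FDXR (ENSG00000161513; chromosome 17, 74862497 to 74873031), the mitochondrial ferredoxin reductase, had 49.5, 50.2 and 46.5 CPM at 500 µg/mL of licorice, against 41.1, 47.3 and 40.01 CPM at 20 µg/mL. Here the groups overlapped, since 1 library at 20 µg/mL was above 1 at 500 µg/mL. The log2 change was 0.19 ± 0.07 (edgeR adjusted p = 0.0366). The call was lost when only the compared groups were fitted (adjusted p = 0.0507) and when replicate 1 or 2 at 500 µg/mL or replicate 1 or 3 at 20 µg/mL was left out (adjusted p of 0.097 to 0.184).

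The members called lower were TP53I3 and TP53INP1. TP53I3 (ENSG00000115129; chromosome 2, 24077433 to 24085861), a quinone oxidoreductase also called PIG3, had 98.1, 106 and 112 CPM at 500 µg/mL of licorice, against 133, 136 and 138 CPM at 20 µg/mL. TP53INP1 (ENSG00000164938; chromosome 8), a stress protein that takes part in apoptosis and autophagy, had 16.4, 17.0 and 17.9 CPM at 500 µg/mL, against 22.2, 25.4 and 24.2 CPM at 20 µg/mL. In both genes every library at 500 µg/mL lay below every library at 20 µg/mL. The log2 changes were -0.37 ± 0.07 for TP53I3 (edgeR adjusted p = 2.41e-05) and -0.48 ± 0.08 for TP53INP1 (edgeR adjusted p = 2.29e-06).

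The remaining members had overlapping groups. SESN1 (ENSG00000080546; chromosome 6, 108986437 to 109094819), a sestrin that restrains mTORC1, had 14.5, 15.5 and 14.7 CPM at 500 µg/mL of licorice, against 13.7, 17.1 and 16.1 CPM at 20 µg/mL. FAS (ENSG00000026103; chromosome 10, 88990582 to 89015785), a death receptor, had 27.1, 28.7 and 26.1 CPM at 500 µg/mL, against 27.1, 25.5 and 27.2 CPM at 20 µg/mL. ZMAT3 (ENSG00000172667; chromosome 3, 179017223 to 179072279), a zinc finger RNA-binding protein, had 41.6, 45.5 and 41.1 CPM at 500 µg/mL, against 39.7, 44.6 and 37.4 CPM at 20 µg/mL. For each of the 3 genes the 95% interval of the log2 change held 0, and it limits how large a change could have been missed. The intervals ran from -0.22 to 0.08 for SESN1 (edgeR adjusted p = 0.507), from -0.07 to 0.14 for FAS (adjusted p = 0.664) and from -0.04 to 0.19 for ZMAT3 (adjusted p = 0.332).

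In all, 5 of the 10 members were called higher and 2 lower with licorice, where 37% of all genes tested were called (18.5% higher and 18.4% lower). The median log2 change was 0.13 over the members and 0.0016 over all genes tested. The libraries of the 2 doses did not overlap for 6 members (4 above and 2 below), against 44.8% of all genes (22.6% above and 22.2% below). With 37% of all genes called, the count of members called is not by itself particular to the members. The epithelial markers moved with the same dose: all 5 were called lower, with summed levels of 3913 to 4210 CPM at 500 µg/mL and 6309 to 6602 CPM at 20 µg/mL. Of the 10 markers of other cell types, 5 could be tested. The summed level of all 10 was 80.8 to 96.0 CPM at 500 µg/mL and 39.9 to 47.6 CPM at 20 µg/mL. CD68, a lysosomal protein of macrophages that other cells also make, was called higher and COL3A1 lower. The part of the markers in the result was not tested, and in bulk RNA fewer cells of a type and less RNA per cell cannot be told apart.

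The dose steps were taken separately. Between 100 and 20 µg/mL of licorice 0 of 10 members were called by edgeR, where 0.788% of all genes were, and 1 member, MDM2, had an unadjusted p under 0.05 (log2 change 0.16, adjusted p = 0.26; 0.0462 without replicate 2 at 20 µg/mL). Between 500 and 100 µg/mL 4 members were called higher and 3 lower, where 36% of all genes were called (18% higher and 18% lower). GDF15 rose by 2.58 ± 0.10 log2 (edgeR adjusted p = 1.24e-24) and CDKN1A by 0.79 ± 0.05 (adjusted p = 1.73e-18). MDM2 was higher by 0.25 ± 0.06 (edgeR adjusted p = 0.000242), and TP53INP1 and TP53I3 fell by 0.50 and 0.45 log2. FAS (0.14 ± 0.05, edgeR adjusted p = 0.0352) and SESN1 (-0.21 ± 0.07, adjusted p = 0.0224) were called in this step as well. FAS lost its call without replicate 1 or 2 at 500 µg/mL or replicate 1 or 2 at 100 µg/mL (adjusted p of 0.0648 to 0.173), by DESeq2 (0.0734), when the compared groups were fitted alone (0.115) and with no filter on low counts (0.158). SESN1 lost its call without replicate 1 or 3 at 500 µg/mL or replicate 2 at 100 µg/mL (adjusted p of 0.0571 to 0.174), when the compared groups were fitted alone (0.0694) and with no filter (0.083). BTG2, which had log2 changes of 0.12 between 100 and 20 µg/mL and 0.14 between 500 and 100 µg/mL, was called in the upper step when replicate 1 or 3 at 100 µg/mL was left out (adjusted p of 0.0285 and 0.0373) and FDXR without replicate 2 at 100 µg/mL (0.0161).

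**Figure D2:**
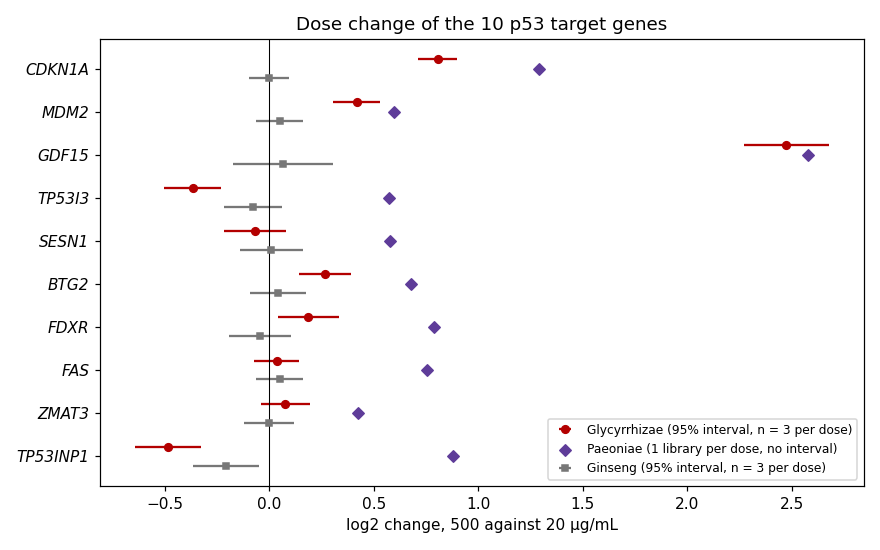
Log2 change of each of the 10 genes between 500 and 20 µg/mL for Glycyrrhizae and Ginseng (edgeR estimate, bars are 95% intervals, n = 3 per dose) and for Paeoniae (log2 ratio of CPM plus 1, 1 library per dose, no error). Glycyrrhizae has values on both sides of 0, Ginseng stays near 0, and all 10 Paeoniae values are above 0.

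With the other 5 replicated extracts 0 of 10 members were called by edgeR between 500 and 20 µg/mL, and DESeq2 also gave 0. All genes called there made up 1.2% for Ginseng, 1.55% for Poria, 0.208% for Atractylodis, 3.78% for Sibjeondaebo-tang and 2.08% for Palmul-tang. At an unadjusted p under 0.05 there was 1 member for Ginseng, 1 for Poria, 2 for Sibjeondaebo-tang and 0 for Atractylodis and Palmul-tang. For CDKN1A the 95% interval of the log2 change was -0.10 to 0.09 with Ginseng, -0.08 to 0.11 with Poria and -0.12 to 0.07 with Atractylodis. It was -0.07 to 0.12 with Sibjeondaebo-tang and -0.22 to 0.01 with Palmul-tang, so a change of the size seen with licorice lies outside each interval. GDF15 was measured less exactly, and its highest upper bound among these 5 extracts was 0.50, with Poria, where its log2 change was 0.26 ± 0.12 (edgeR adjusted p = 0.346). TP53INP1 had negative estimates in all 5, the lowest -0.21 ± 0.08 with Ginseng (edgeR adjusted p = 0.273; 0.0268 without replicate 3 at 20 µg/mL). These comparisons do not show that the levels were the same. Between 100 and 20 µg/mL 0 of 10 members were called with any of the 5, and 0 had an unadjusted p under 0.05, where 0.0788% of all genes were called for Sibjeondaebo-tang and 0% for the other 4 extracts.

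The licorice change was then tested against that of Ginseng, which carries the same set number in its sample codes. The difference between the 2 dose changes was called for 4 of 10 members, where 21% of all genes were called. It was 2.41 ± 0.16 log2 for GDF15 (edgeR adjusted p = 1.29e-16), 0.81 ± 0.07 for CDKN1A (adjusted p = 2.01e-13), 0.37 ± 0.08 for MDM2 (adjusted p = 0.000372) and -0.29 ± 0.10 for TP53I3 (adjusted p = 0.0272). The TP53I3 call was lost without replicate 1 of licorice at 500 µg/mL (adjusted p = 0.0966), replicate 3 of licorice at 20 µg/mL (0.0536), replicate 2 of Ginseng at 500 µg/mL (0.0688) or replicate 3 of Ginseng at 20 µg/mL (0.118). Leaving out 1 library brought in FDXR (replicate 2 of licorice or 3 of Ginseng at 20 µg/mL; adjusted p of 0.0281 and 0.0208), BTG2 (replicate 1 of licorice at 20 µg/mL; 0.0376) and TP53INP1 (replicate 1 of licorice or 1 or 2 of Ginseng at 20 µg/mL; 0.0367 to 0.0443). Against the mean of the other 5 replicated extracts, where 32.4% of all genes were called, 6 members differed. These were the same 4 genes with BTG2 (0.27 ± 0.07, edgeR adjusted p = 0.00176) and TP53INP1 (-0.35 ± 0.09, adjusted p = 0.00153) added. FDXR came in without replicate 2 of licorice at 20 µg/mL, replicate 3 of Ginseng at 20 µg/mL, replicate 2 of Atractylodis at 500 µg/mL or replicate 3 of Palmul-tang at 500 µg/mL (adjusted p of 0.0153 to 0.0464) and ZMAT3 without replicate 2 of licorice at 20 µg/mL (0.0191). Between Poria and Atractylodis (0.0732% of all genes called) and between Sibjeondaebo-tang and Palmul-tang (0% called) 0 of 10 members differed by edgeR, and 0 had an unadjusted p under 0.05.

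Peony had 1 library per dose, so its values carry no replicate error and no test, and the intervals given are exact Poisson intervals that cover counting error only. CDKN1A had 307 CPM (95% interval 299 to 315) at 500 µg/mL, 141 CPM at 100 µg/mL and 125 CPM at 20 µg/mL. GDF15 had 27.1 CPM (24.8 to 29.4) at 500 µg/mL, 6.24 CPM at 100 µg/mL and 3.69 CPM at 20 µg/mL. In both genes the library at 500 µg/mL stood apart, and CDKN1A was higher there than in any of the other 59 libraries, the licorice ones included. GDF15 stayed under the highest licorice library, which had 33.6 CPM.

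The other members were high in the same peony library. MDM2 had 209.7 CPM (203 to 216) at 500 µg/mL, 138 CPM at 100 µg/mL and 138 CPM at 20 µg/mL. FAS had 48.0 CPM (45.1 to 51.2) at 500 µg/mL, against 27.6 and 28.1 CPM at 100 and 20 µg/mL. TP53INP1 had 42.4 CPM (39.6 to 45.3) at 500 µg/mL, against 25.3 and 22.6 CPM at 100 and 20 µg/mL. The highest of the other 59 libraries had 179 CPM for MDM2, 28.7 CPM for FAS and 27.3 CPM for TP53INP1, so the peony library at 500 µg/mL was above all of them for the 3 genes. FDXR had 68.6 CPM at 500 µg/mL, against 42.9 and 39.3 CPM at 100 and 20 µg/mL. BTG2 had 36.6 CPM at 500 µg/mL, against 20.0 and 22.5 CPM at 100 and 20 µg/mL. ZMAT3 had 61.0 CPM at 500 µg/mL, against 46.8 and 45.3 CPM at 100 and 20 µg/mL. These 3 genes also had their highest value of all 60 libraries in the peony library at 500 µg/mL, as did SESN1, with 23.4 CPM there, against 16.4 and 15.3 CPM at 100 and 20 µg/mL. TP53I3, which fell with licorice, had 174 CPM with peony at 500 µg/mL, against 137 and 116 CPM at 100 and 20 µg/mL, and a vehicle library was higher at 178 CPM.

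On the log2 scale of CPM plus 1, the ratio of 500 to 20 µg/mL of peony was above 0 for 10 of 10 members. It ran from 0.42 for ZMAT3 to 2.58 for GDF15, with 1.29 for CDKN1A and a median of 0.71, while the median over all genes tested was -0.00037. Past 1.5-fold were 7 members, all higher, where 9.61% of all genes were higher by as much and 9.65% lower (19.3% in all). TP53I3, SESN1 and ZMAT3, at 1.49-, 1.49- and 1.34-fold, stayed under it, and MDM2, at 1.51-fold, was only just past it. The count of 7 ran from 6 to 8 with another pseudocount or another scaling of the libraries. The level at 20 µg/mL of peony was itself the lowest of the 25 group means for GDF15 and CDKN1A. Taken over 100 µg/mL instead, the log2 ratio was again above 0 for 10 of 10 members, with a median of 0.69. It was then 1.95 for GDF15, 1.12 for CDKN1A and 0.34 for TP53I3. The library at 500 µg/mL was the highest of all 60 for 8 members, and it was so for 20.6% of all genes and the lowest for 18.7%. Between 100 and 20 µg/mL 1 member, GDF15, was past 1.5-fold, where 1.52% of all genes were past it either way. The summed level of the 10 markers of other cell types was 88.7 CPM in the peony library at 500 µg/mL, against a median of 45.0 CPM over all libraries. The epithelial markers summed to 5174 CPM there. The part of either in the result was not tested. With Angelicae, also at 1 library per dose, 0 of 10 members were past 1.5-fold between 500 and 20 µg/mL, where 0.771% of all genes were, and TP53INP1 had the ratio farthest from 0 (-0.29).

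Opposite-strand genes overlap 6 members in GENCODE 29: DINOL at CDKN1A, CPM (a carboxypeptidase gene) at MDM2, FAM228B at TP53I3, AL390208.1 at SESN1, ACTA2 at FAS and NDUFAF6 at TP53INP1. The strand setting of the counting is not given in the sources used here, so reads of such a pair may not have been told apart. ACTA2, which was among the markers, had 25.8 CPM at 500 µg/mL and 11.8 CPM at 20 µg/mL of peony, beside the higher FAS in the same library. With licorice ACTA2 had 14.4 CPM at 500 µg/mL and 14.2 CPM at 20 µg/mL.

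GDF15 and CDKN1A rose in the same libraries but not by the same amount. The log2 ratio of GDF15 to CDKN1A was -2.90, -2.93 and -2.85 in the licorice libraries at 500 µg/mL, with a mean of -2.89 ± 0.04, against -4.56 ± 0.13 at 20 µg/mL (SD, n = 3 each). The difference of 1.67 separated the groups fully, with an exact two-sided permutation p of 0.1, the smallest that 3 against 3 can give. With peony the ratio was -5.08, -4.49 and -3.50 at 20, 100 and 500 µg/mL. For the other 5 replicated extracts the difference lay between -0.18 and 0.24. The groups were fully separated with Poria too, where the difference was 0.24 and the exact permutation p was again 0.1, and Palmul-tang, at 2 against 2, could not give a p under 0.333. The mean log2 CPM of the other 8 members was 5.32 to 5.39 in the licorice libraries at 500 µg/mL and 5.30 to 5.40 at 20 µg/mL, and these ranges overlapped. In the peony libraries the same mean was 5.99 at 500 µg/mL and 5.31 at 20 µg/mL.

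**Figure D3:**
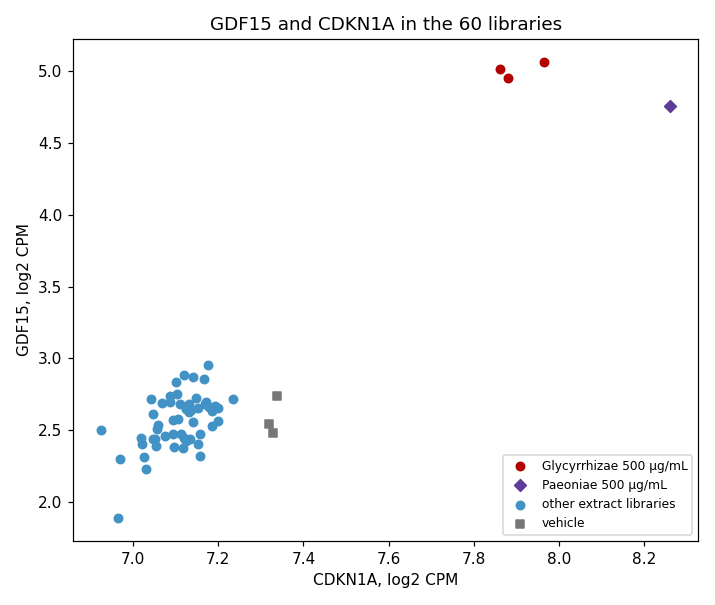
GDF15 against CDKN1A in each of the 60 libraries, both in log2 CPM; each point is 1 library. The 3 Glycyrrhizae libraries at 500 µg/mL and the Paeoniae library at 500 µg/mL lie apart from the other extract libraries, and the 3 vehicle libraries lie at a higher CDKN1A level than the other extract libraries.

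Across the 18 extract and dose groups of the 6 replicated extracts, centred within extract, the profile of CDKN1A had a Pearson correlation of 0.985 with that of GDF15, and GDF15 ranked 7 among 10669 genes. This describes 18 group means and rests on licorice: without its groups, over 15, the correlation was 0.359 and the rank 2201. The genes whose profile was most like GDF15 over the 18 groups were SLC6A9, RBCK1, VAT1, PHLDA1 and EEF1A2 (correlations of 0.986 to 0.99). Those most like CDKN1A were SESN2, RBCK1, SARS1, AREG and VAT1 (0.987 to 0.993). Over the 15 groups without licorice other genes came first, TBC1D20 for GDF15 (0.925) and ZNF703 for CDKN1A (0.922). Among the other members, GDF15 had a correlation of 0.78 with MDM2, -0.90 with TP53I3 and -0.79 with TP53INP1 over the 18 groups. Without licorice the signs turned, to -0.46 with MDM2, 0.50 with TP53I3 and 0.07 with TP53INP1 over the 15 groups, so these correlations rest on licorice as well.

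Further p53 targets were taken from a list of 41 genes, of which 40 were tested. With licorice at 500 against 20 µg/mL, 18 were called higher and 4 lower, with a median log2 change of 0.11, beside the 18.5% and 18.4% of all genes. Among the strongest was SESN2 (1.14 ± 0.06, edgeR adjusted p = 8.88e-20), the stress-induced sestrin. GADD45A (1.16 ± 0.07, edgeR adjusted p = 7.13e-19), a growth arrest gene, and PMAIP1 (1.55 ± 0.09, adjusted p = 1.26e-18), which encodes the BH3-only protein NOXA, followed. DDB2 (0.55 ± 0.05), a DNA damage binding protein, and TNFRSF10A (0.45 ± 0.06), a TRAIL receptor, were also called. Those called lower were KITLG (-0.83 ± 0.07, edgeR adjusted p = 2.28e-14), the ligand of KIT, CD82 (-0.65 ± 0.15), a tetraspanin, APAF1 (-0.21 ± 0.07), the apoptosome scaffold, and PCNA (-0.16 ± 0.05), the replication clamp. APAF1 lost its call without replicate 1 at 500 µg/mL (adjusted p = 0.107) or replicate 2 at 20 µg/mL (0.132), and PCNA without replicate 2 at 20 µg/mL (0.0555). PPM1D, a phosphatase of the p53 feedback, was not called (0.11, edgeR adjusted p = 0.229). CCNG1, which encodes a cyclin, was not called either (0.05, edgeR adjusted p = 0.528). Whether the listed genes that were called moved through p53 or through other factors was not tested.

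In the peony libraries 19 of the same 40 genes were past 1.5-fold at 500 against 20 µg/mL, all of them higher, where 9.61% of all genes were higher and 9.65% lower by as much, and 34 of 40 had a ratio above 0, with a median of 0.55. CCNG1, a cyclin of the p53 feedback, had 307 CPM at 500 µg/mL and 143 CPM at 20 µg/mL. PPM1D had 35.0 CPM at 500 µg/mL and 18.9 CPM at 20 µg/mL. CD82, which fell with licorice, was also among the 19 genes. Of these 40 genes, 22 had their highest level of all 60 libraries in the peony library at 500 µg/mL and 4 their lowest, as had 20.6% and 18.7% of all genes.

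**Figure D4:**
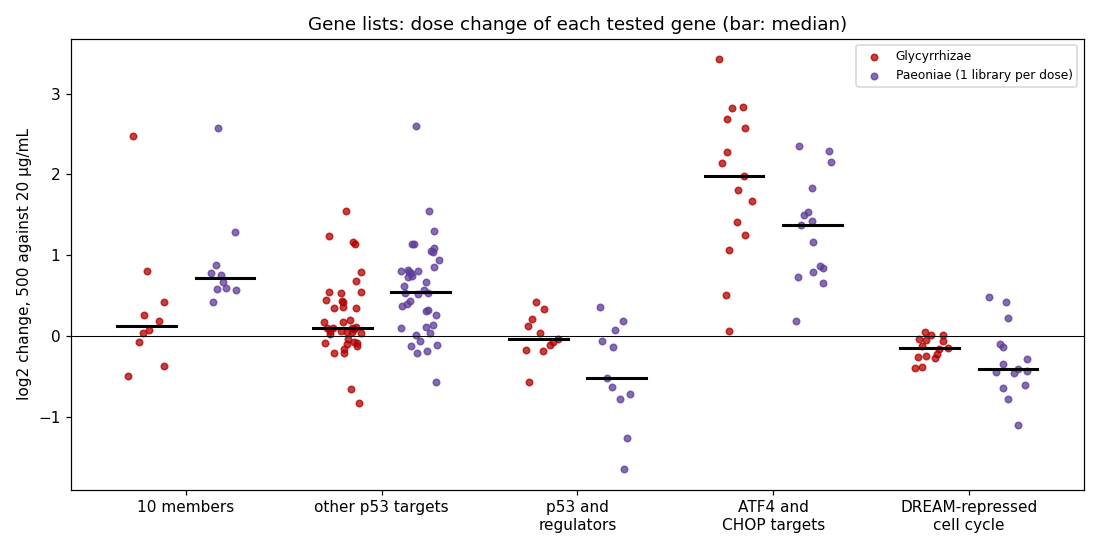
Log2 change between 500 and 20 µg/mL of each tested gene (points) of the 10 p53 targets and of 4 further gene lists, for Glycyrrhizae (edgeR estimate, n = 3 per dose) and Paeoniae (ratio of CPM plus 1, 1 library per dose); bars are list medians. The medians of the ATF4 and CHOP targets are 1.98 and 1.37, above those of the p53 targets.

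MDM4, the p53 inhibitor related to MDM2, was called higher with licorice (0.42 ± 0.09, edgeR adjusted p = 0.000171), and of 11 tested genes for p53 and its regulators 4 were called higher and 3 lower, where 18.5% of all genes were higher and 18.4% lower. In the peony libraries MDM4 had 15.9 CPM at 500 µg/mL and 23.2 CPM at 20 µg/mL. With peony 5 of the 11 regulators (ATM, ATR, CHEK2, TP53BP1 and TP63) were past 1.5-fold lower and 0 higher, where 9.65% of all genes were lower and 9.61% higher by as much. ATM and ATR are kinases that act on p53 after DNA damage. ATM had 19.0 CPM at 500 µg/mL and 46.7 CPM at 20 µg/mL, and ATR had 13.8 CPM at 500 µg/mL and 45.0 CPM at 20 µg/mL.

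The targets of ATF4 and CHOP were counted because GDF15 is one of them. The list used holds ATF4 itself and leaves out GDF15, and it was chosen with earlier results of these data known. Of the 15 listed genes, all tested, 14 were called higher and 0 lower with licorice at 500 against 20 µg/mL, with a median log2 change of 1.98, where 18.5% of all genes were called higher. ASNS, asparagine synthetase, rose by 2.82 ± 0.05 (edgeR adjusted p = 2.41e-38), DDIT3, which encodes CHOP, by 2.14 ± 0.09, TRIB3, a pseudokinase, by 1.98 ± 0.06 and ATF3, a stress transcription factor, by 2.84 ± 0.19. With the other replicated extracts fewer of the 15 were called higher and 0 lower, and GDF15 was not called. Those called were 4 with Ginseng, 3 with Poria and 2 each with Atractylodis, Sibjeondaebo-tang and Palmul-tang. Of all genes, 1.2%, 1.55%, 0.208%, 3.78% and 2.08% were called there either way, in that order. With peony 14 of 15 were past 1.5-fold higher and 0 lower, where 9.61% of all genes were higher by as much. TRIB3 had 176 CPM at 500 µg/mL and 38.8 CPM at 20 µg/mL. ASNS had 89.0 CPM at 500 µg/mL and 32.6 CPM at 20 µg/mL. Of 15 cell cycle genes that p53 and p21 repress through the DREAM complex, 0 were called higher and 7 lower with licorice (median -0.14), where 18.4% of all genes were lower. With peony 0 were past 1.5-fold higher and 4 lower (AURKA, BUB1, CDC20 and MKI67; median -0.41), where 9.65% of all genes were lower, and CDK1 (0.48) and E2F1 (0.43) had ratios above 0. Whether GDF15 and CDKN1A moved through p53 or through ATF4 was not tested.

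Against the vehicle the members split already at the low dose. The mean of the 20 µg/mL groups of the 6 replicated extracts was higher than the vehicle for 5 members and lower for 4, where 34.1% of all genes were called (16.9% higher and 17.1% lower). Vehicle libraries carry their own set of sample codes, so treatment and set cannot be told apart in this comparison. ZMAT3 was higher by 0.62 ± 0.05 log2 (edgeR adjusted p = 2.18e-12), against a vehicle level of 26.2 ± 0.555 CPM (SD, n = 3), and MDM2 by 0.46 ± 0.05 (adjusted p = 1.84e-10), against 93.8 ± 6.48 CPM. TP53INP1 (0.37 ± 0.06), SESN1 (0.22 ± 0.06) and FAS (0.12 ± 0.04, edgeR adjusted p = 0.0247) were higher as well. FAS lost its call without vehicle replicate 1 (edgeR adjusted p = 0.202) or 3 (0.127) and with no filter on low counts (0.113). CDKN1A, TP53I3, BTG2 and FDXR were lower by similar amounts, at -0.21, -0.25, -0.25 and -0.25 log2. GDF15 was not called (0.02, 95% interval -0.17 to 0.22, edgeR adjusted p = 0.875). The order of the members in this comparison therefore differed from that in the dose comparison, with GDF15 not called and CDKN1A lower.

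For CDKN1A, GDF15 and MDM2 the remaining extract libraries all lay below those of licorice and peony at 500 µg/mL. Over the 53 extract libraries other than licorice and peony at 500 µg/mL and apart from the vehicle, CDKN1A ran from 122 to 151 CPM with a median of 139 CPM. GDF15 ran from 3.69 to 7.75 CPM with a median of 5.93 CPM, and MDM2 from 118 to 153 CPM. The 3 vehicle libraries had 159.7 to 162 CPM for CDKN1A, above all 53, and 86.3 to 97.6 CPM for MDM2, below all 53.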

How the data were processed

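Per the submitters' processing notes, reads were handled with FastQC 0.11.9, Trim Galore 0.6.5, STAR 2.7.3a, RSEM 1.3.3 and the GRCh38 build. For the annotation release and the strand setting, neither is given in the sources used here. Expected counts per gene were deposited by the authors, an estimate that shares ambiguous reads between genes, in 270 columns, of which 210 carry no label of these samples and were not used. Of the values above 0, 76.0% were whole (within 1e-09), and all were rounded. Symbols came from gene name tables and GENCODE 29.

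The fit was edgeR 4.0.16 (R 4.3.3): filterByExpr, TMM, 1 mean per extract and dose over all 60 libraries, glmQLFit and glmQLFTest with 35 residual degrees of freedom, and Benjamini-Hochberg adjustment over all 17764 genes at 0.05. CPM and log2 values were computed from the deposited counts with TMM scaling. Each SE was obtained by dividing the log2 change by the root of its F statistic, and intervals are 95%. Extracts with 1 library per dose were described by log2(CPM + 1) ratios past 1.5-fold. The 51 replicate pairs had a chi-square per degree of freedom of 2.72 to 40.3, above sampling noise in every pair. Deviations of same-numbered replicates from their group means correlated at -0.155 to 0.369, above 0.1 for all 3 numbers with Ginseng only, where the replicate block changed no call of a member between doses of Ginseng. The fit was tested on simulated data with known changes, drawn with the same spread for every gene and no replicate or set effect. Those data are therefore simpler than the real libraries.

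The members, gene lists and comparisons were chosen with earlier results of these data known. The text names all members, and of the further p53 targets up to 6 with the smallest adjusted p in each direction for licorice, except items that are not reported here. It also names MDM4, PPM1D, ASNS, DDIT3, TRIB3 and ATF3, and the 5 genes most like GDF15 and CDKN1A among 10670 genes averaging 5 CPM or more. CCNG1, ATM, ATR, CDK1, E2F1, CD68, COL3A1 and ACTA2 in their own sentences were picked after their values were seen. The alternatives were leaving out each library, a replicate block, fitting the compared groups alone and keeping genes with low counts. Further ones were RLE size factors, plain library totals, DESeq2 1.42.0 and other pseudocounts.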

Additional observations from a re-analysis of the deposited data

Results flagged for a closer look

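The results below are differences between extracts in the change from 20 to 500 µg/mL, each with an interaction adjusted p under 0.05 by edgeR. Against Ginseng the licorice change was larger by 2.41 log2 for GDF15, 0.809 for CDKN1A and 0.368 for MDM2, and lower by a difference of -0.288 for TP53I3. Against the mean of the other 5 replicated extracts the difference was 2.48 for GDF15, 0.823 for CDKN1A, 0.387 for MDM2, 0.273 for BTG2, -0.324 for TP53I3 and -0.346 for TP53INP1.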

How the results depend on the processing

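Of 304 alternatives for the counts of members called and the GDF15 to CDKN1A ratio, 301 kept the result (a count within 1.5 times, a ratio within 1 SD), and none of these nor of 1497 alternatives for single genes and values reversed a direction that was called. The count of members called with Ginseng between 500 and 20 µg/mL, 0 in the full data, ran from 0 to 1 when 1 library was left out (TP53INP1, adjusted p = 0.0268, without replicate 3 at 20 µg/mL). For licorice between 100 and 20 µg/mL the count ran from 0 to 1 likewise (MDM2, adjusted p = 0.0462, without replicate 2 at 20 µg/mL). Within that limit the licorice count ran from 6 to 7 for 500 against 20 µg/mL, from 5 to 8 for 500 against 100 µg/mL, from 3 to 6 against Ginseng and from 6 to 8 against the mean of the other 5 extracts. With a pseudocount of 1 the licorice difference in the log2 ratio of GDF15 to CDKN1A was 1.49 in place of 1.67, which follows from the low level of GDF15. Same-numbered replicates did not deviate together in every extract, so the numbers were not taken as pairs. With the replicate block the licorice count stayed at 7 for 500 against 20 µg/mL and became 8 (from 7) for 500 against 100 µg/mL, 5 (from 4) against Ginseng and 7 (from 6) against the mean of the other 5 extracts, with FDXR the gene added each time (adjusted p of 0.014, 0.0316 and 0.0185). Genes near 5 CPM, such as GDF15 at low doses, rest on few counts, and Paeoniae and Angelicae have no replicates.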
